A study of Mus musculus with 23 samples.

Results

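Glutathione is the main small thiol of animal cells. It is built from glutamate, cysteine and glycine, first by glutamate-cysteine ligase (the catalytic subunit Gclc with the modifier subunit Gclm) and then by glutathione synthetase (Gss). Glutathione transferases (GSTs) couple it to electrophiles, glutathione peroxidases spend it on peroxides, and glutathione reductase (Gsr) returns the oxidised form with NADPH. In the small intestine these enzymes meet dietary and bacterial electrophiles, and busulfan, an alkylating drug, is cleared by glutathione conjugation, for which the alpha class of GSTs is best known. The genes of this system were followed in the small intestine of busulfan-treated mice after fecal microbiota transplantation (FMT). Members were the entries whose mouse symbol starts with Gsta, Gstm, Gstp, Gstt, Gsto, Gstz, Gstk or Mgst, or is Gclc, Gclm, Gss, Gsr or Gpx with a digit, with pseudogenes left out. This rule found 37 of the 19215 entries of the expression table.

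All mice were ICR males given busulfan at 40 mg/kg, so that the controls carried the drug as well, and no mouse without busulfan is among these libraries. The Sa groups then got saline. The other groups got FMT, and their donors had been dosed with vehicle (Con-FMT) or with alginate oligosaccharides (AOS) at 10 mg/kg (A10-FMT) or 100 mg/kg (A100-FMT). The transplanted material was luminal content of the small intestine, pooled over the donors of a group, so each FMT group stands for 1 donor pool. Per the study's methods, busulfan was given at 3 weeks of age, FMT daily for 1 week, and tissue was taken at 5 weeks of age. The sample codes split the libraries into 2 sets (set 1 and set 2 here), and neither the meaning of that code nor which set followed this schedule is given in the labels. Each treatment had 3 libraries in each set, except Sa of set 1 with 2. Each library is taken here as 1 mouse, which the study's methods do not state.

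Expression was given as FPKM (fragments mapped to a gene, divided by its length and by the mapped fragments of the library), a scale per length on which genes can be compared. The libraries were mainly epithelial in their markers. The summed level of 10 enterocyte markers was 5030 to 14047 FPKM over the libraries and that of 7 Paneth cell markers 6448 to 20933 FPKM, against 0.81 to 2.09 FPKM for 6 smooth muscle markers, 0.19 to 1.1 FPKM for 5 B and plasma cell markers and 1.35 to 2.73 FPKM for 5 hepatocyte markers. Some other lists reached higher sums, at 45.3 to 73.6 FPKM for 6 macrophage markers and 3.58 to 24.6 FPKM for 5 T cell markers. The sum of 5 erythroid markers was 0.23 to 40.4 FPKM. Replicate 3 of Sa in set 1 stood apart. Its correlation with the other libraries over genes was 0.944 to 0.965, against 0.968 to 0.991 among the others, and its title and description name different columns of the table. The column of its title was used, and the calls against Sa in set 1 are also given without it.

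Of the 37 members, 31 averaged 1 FPKM or more across the 23 libraries and were tested, and 6 were not. Gpx7 was at 0.40 to 1.16 FPKM, and Gpx5 (an epididymal form), Gpx6, Gpx8, Gsto2 and Gstt4 were at 0.40 FPKM or less in every library. The tested members were abundant as a group. The median of their mean levels was 40.1 FPKM, against 12.9 FPKM over all 11337 genes tested, and 10 members were above 100 FPKM.

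The peroxidases, the pi class and the microsomal class together made up most of the glutathione transcripts. Summed over the 37 members, a library held 4676 to 6794 FPKM. The 8 peroxidases took 27.9 to 34.6% of this sum (median 30.8%), the 3 pi GSTs 19.5 to 26.2% (median 22.8%) and the 3 microsomal GSTs 18.3 to 22.2% (median 20.5%). The 7 mu GSTs took 6.09 to 10.5%, the 2 omega GSTs 6.41 to 8.08% and the 4 genes of synthesis and recycling 4.08 to 6.68%. The 4 alpha GSTs took only 1.13 to 2.53%, the 4 theta GSTs 1.52 to 2.47%, Gstk1 0.722 to 1.25% and Gstz1 0.470 to 0.660%. The alpha share leaves out Gm3776, a near copy of Gsta1 that is no member and was at 45.2 to 159 FPKM, against 58.1 to 146 FPKM for the 4 alpha GSTs together. The highest sum, 6794 FPKM, was that of Sa replicate 3 of set 1.

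**Figure D1:**
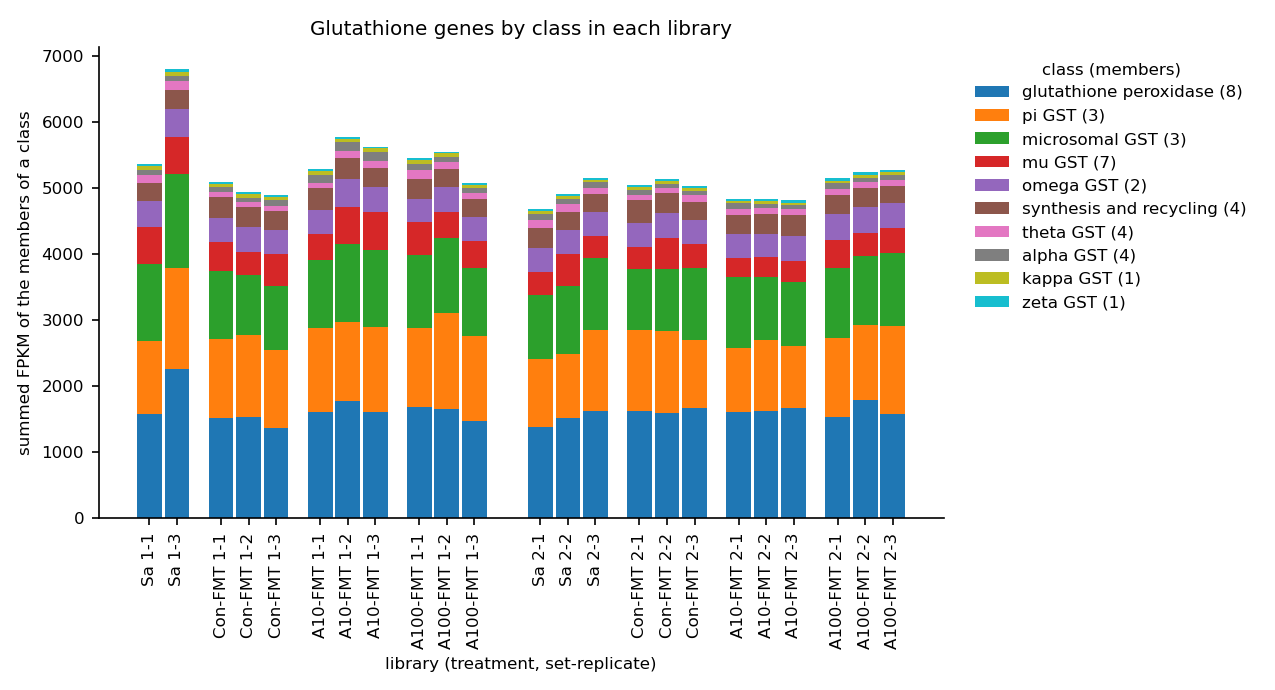
Stacked bars show the FPKM of the 37 members summed by class (vertical axis) in each of the 23 libraries (horizontal axis, treatment with set and replicate). Peroxidases, pi GSTs and microsomal GSTs form most of every bar, and Sa replicate 3 of set 1 has the tallest at 6794 FPKM.

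The 8 members with the highest mean levels came from these classes and from the omega class. Gstp1, the pi-class transferase of many epithelia, was the highest, at rank 69 of all entries. In set 1 it was at 1015 and 1430 FPKM in Sa, 1131, 1144 and 1080 FPKM in Con-FMT, 1161, 1124 and 1208 FPKM in A10-FMT and 1110, 1316 and 1202 FPKM in A100-FMT. In set 2 it was at 948, 903 and 1119 FPKM in Sa, 1091, 1165 and 967 FPKM in Con-FMT, 911, 1007 and 887 FPKM in A10-FMT and 1118, 1062 and 1234 FPKM in A100-FMT. In set 1 the high value was that of Sa replicate 3. In set 2 every A10-FMT library was below every A100-FMT library, while Sa and Con-FMT overlapped with both. Part of this level is uncertain, since 52.8% of the 100-base windows of the Gstp1 transcript also occur in Gstp2, which was at 41.5 to 134 FPKM.

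Gpx2, the peroxidase of the gastrointestinal epithelium, followed at rank 99. Its set 1 values were 835 and 1211 FPKM in Sa, 864, 896 and 666 FPKM in Con-FMT, 903, 1030 and 884 FPKM in A10-FMT and 980, 938 and 768 FPKM in A100-FMT. Its set 2 values were 721, 777 and 908 FPKM in Sa, 954, 883 and 936 FPKM in Con-FMT, 852, 915 and 955 FPKM in A10-FMT and 773, 984 and 825 FPKM in A100-FMT. No treatment kept its libraries apart from the others in both sets. Gpx1, the cytosolic peroxidase found in most cells, ranked 211 at 404 to 675 FPKM and is described with the Sa comparisons below, as are Mgst3 and Gsto1.

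The microsomal GSTs are membrane enzymes, and Mgst2 and Mgst3 also act in leukotriene metabolism. Mgst1 had the smallest standard deviation of the tested members. It was at 365 and 339 FPKM in Sa, 317, 302 and 296 FPKM in Con-FMT, 308, 324 and 328 FPKM in A10-FMT and 316, 322 and 290 FPKM in A100-FMT of set 1. Its set 2 values were 301, 313 and 333 FPKM in Sa, 308, 322 and 324 FPKM in Con-FMT, 335, 326 and 325 FPKM in A10-FMT and 322, 315 and 309 FPKM in A100-FMT. Its highest library was 1.26 times its lowest. Mgst2 spread more widely. It was at 358 and 421 FPKM in Sa, 310, 200.1 and 274 FPKM in Con-FMT, 284, 371 and 363 FPKM in A10-FMT and 355, 377 and 331 FPKM in A100-FMT of set 1. Its set 2 values were 263, 259 and 317 FPKM in Sa, 226, 227 and 315 FPKM in Con-FMT, 286, 248 and 210.0 FPKM in A10-FMT and 322, 280 and 390.2 FPKM in A100-FMT.

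Variation over the libraries differed from member to member, also within a class. The standard deviation of log2(FPKM + 1) over the 23 libraries had a median of 0.21 over the tested members and 0.16 over all tested genes, and 9 of the 31 members lay below the latter. The steadiest were Mgst1 (0.07), Gsto1 (0.08), Gclm (0.10) and Gstz1 (0.12), followed by Gstm5 (0.12). The most variable were Gsta1 (0.49), Gstp2 (0.44), Gstp3 (0.40), Gstm2 (0.38) and Gstm3 (0.36), with Gsta2 at 0.34. A lower SD than that of Gsta1 was found in 96.2% of all tested genes. The highest Gsta1 library was 3.67 times the lowest. This ratio was larger for Gsta2 (4.84) and Gstp3 (4.23), which have lower levels, and log2(FPKM + 1) understates the spread of low genes.

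FMT from AOS 10 mg/kg donors was compared with FMT from vehicle donors to ask what the AOS dosing of the donors added. In set 1, 7 of the 31 tested members were higher in A10-FMT and 0 were lower (limma on log2(FPKM + 1), adjusted p under 0.05, adjusted over all genes), where 16.7% of all tested genes were called. They were the alpha GSTs Gsta1, Gsta2 and Gsta4, the mu GSTs Gstm6 and Gstm7, and the peroxidases Gpx3 and Gpx4. Of the 1891 genes called in all, 590 were higher and 1301 lower. The median log2 change was 0.22 over the 31 members and -0.08 over all genes tested. The libraries are bulk tissue, in which fewer cells of a type and less RNA per cell cannot be told apart.

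Gsta1, which encodes an alpha-class transferase, had the largest log2 change of the 7. In set 1 its level was 59.1, 63.4 and 54.5 FPKM in A10-FMT and 29.7, 18.6 and 31.8 FPKM in Con-FMT. Sa was at 28.7 and 27.8 FPKM and A100-FMT at 36.1, 31.97 and 27.2 FPKM. All 3 A10-FMT libraries of set 1 were above each of the other 20 libraries. In set 2 the levels were 26.7, 18.7 and 17.3 FPKM in A10-FMT, 22.2, 20.0 and 21.2 FPKM in Con-FMT, 36.7, 29.1 and 27.8 FPKM in Sa and 28.6, 20.4 and 25.4 FPKM in A100-FMT. There A10-FMT and Con-FMT overlapped. The log2 change of A10-FMT vs. Con-FMT in set 1 was 1.15 (SE 0.18, adjusted p = 0.00113 by limma).

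Gsta4 prefers 4-hydroxynonenal, a product of lipid peroxidation. It was at 61.2, 70.6 and 59.1 FPKM in A10-FMT and at 35.2, 32.4 and 45.4 FPKM in Con-FMT of set 1, beside 46.7 and 41.0 FPKM in Sa and 49.8, 48.4 and 49.5 FPKM in A100-FMT. Set 2 had 44.8, 37.7 and 34.5 FPKM in A10-FMT, 43.8, 41.6 and 41.1 FPKM in Con-FMT, 49.3, 42.7 and 44.2 FPKM in Sa and 42.9, 37.7 and 46.6 FPKM in A100-FMT. Again the A10-FMT libraries of set 1 stood above every other library, and those of set 2 did not. The log2 change in set 1 was 0.75 (SE 0.11, adjusted p = 0.000931 by limma).

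Gsta2 was far lower in level. It was at 2.96, 4.36 and 3.48 FPKM in A10-FMT, 1.49, 1.5 and 1.85 FPKM in Con-FMT, 2.13 and 1.83 FPKM in Sa and 2.41, 1.36 and 1.58 FPKM in A100-FMT of set 1. Set 2 had 2.10, 0.90 and 1.31 FPKM in A10-FMT, 1.56, 1.23 and 1.61 FPKM in Con-FMT, 2.16, 1.75 and 1.72 FPKM in Sa and 2.07, 1.32 and 1.98 FPKM in A100-FMT. The same A10-FMT libraries were the highest of all 23. The log2 change in set 1 was 0.81 (SE 0.17, adjusted p = 0.00437 by limma). Gsta3, the remaining alpha GST, was at 4.30 to 10.5 FPKM over all libraries and did not pass the test.

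The sequences of Gsta1 and Gsta2 bear on how far these values belong to 1 gene each. Of the 100-base windows of the Gsta1 transcript, 81.8% occur exactly in another gene. Of all Gsta1 windows, 71.3% occur in Gm3776, a near copy that the rule does not include. For Gsta2 the share found in another gene is 35.0%, mostly in Gm10639, and for Gsta3 and Gsta4 it is 0%. How the authors assigned such fragments is not stated, so the split between Gsta1 and Gm3776 is uncertain. Gm3776 was at 151, 159 and 126 FPKM in A10-FMT of set 1 and at 80.7, 56.8 and 67.0 FPKM in Con-FMT of set 1, while in set 2 it was at 70.8, 45.2 and 59.96 FPKM and at 55.4, 58.2 and 57.9 FPKM. It was thus high in the same 3 libraries. Gsta4, with no shared window, was high there too.

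The promoters of Gsta1 and Gsta2 are shown because both genes were highest in the same libraries. They are bases -250 to -51 before a RefSeq start site of each gene on GRCm38.p6. They lie at chr9:78230419-78230618 on the plus strand for Gsta1 and chr9:78347196-78347395 on the minus strand for Gsta2. Capitals mark runs of at least 12 bases found in both, which cover 53 of the 200 bases, the longest being 29 bases.
Gsta1: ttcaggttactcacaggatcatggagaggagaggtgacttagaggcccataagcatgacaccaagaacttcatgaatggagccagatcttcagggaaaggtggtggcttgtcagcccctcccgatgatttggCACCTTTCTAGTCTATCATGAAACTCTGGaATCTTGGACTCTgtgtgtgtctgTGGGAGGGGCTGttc
Gsta2: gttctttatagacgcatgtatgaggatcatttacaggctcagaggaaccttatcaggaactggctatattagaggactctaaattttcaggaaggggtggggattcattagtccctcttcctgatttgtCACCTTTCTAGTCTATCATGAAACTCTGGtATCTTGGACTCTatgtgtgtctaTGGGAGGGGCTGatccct
The shared runs lie in the part of each window nearest to the gene, in the same order.

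The other 4 members called in this comparison had smaller changes in log2(FPKM + 1). That scale understates the change of a low gene such as Gpx3. Gstm6, a mu GST, was at 18.7, 24.8 and 22.2 FPKM in A10-FMT and 17.2, 13.8 and 14.9 FPKM in Con-FMT of set 1, and at 13.1, 13.5 and 13.4 FPKM against 14.9, 15.4 and 15.2 FPKM in set 2. Its A10-FMT libraries were thus the highest of set 1, and below every Con-FMT library in set 2. The log2 change in set 1 was 0.49 (SE 0.09, adjusted p = 0.00244 by limma). Gstm7, also of the mu class, was at 10.4, 11.9 and 10.3 FPKM in A10-FMT and 9.08, 7.4 and 8.9 FPKM in Con-FMT of set 1, with overlapping values of 7.77, 7.11 and 9.03 FPKM and 7.16, 9.13 and 9.14 FPKM in set 2. Its log2 change in set 1 was 0.33 (SE 0.09, adjusted p = 0.0223 by limma).

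Gpx4, which reduces phospholipid hydroperoxides and protects from ferroptosis, was at 279, 316 and 318 FPKM in A10-FMT and 226, 228 and 249 FPKM in Con-FMT of set 1. In set 2 it was at 230.5, 204 and 224 FPKM and at 225, 258 and 262 FPKM, with overlap. Sa was at 254 and 359 FPKM in set 1, on both sides of A10-FMT, and at 223, 258 and 270 FPKM in set 2. A100-FMT was at 239, 270 and 247 FPKM in set 1 and at 259, 277 and 262 FPKM in set 2. The log2 change of Gpx4 in A10-FMT vs. Con-FMT of set 1 was 0.37 (SE 0.10, adjusted p = 0.0212 by limma). Of the 100-base windows of Gpx4, 48.4% also occur in the pseudogene Gpx4-ps2. Gpx3, the secreted plasma peroxidase, was near the limit of testing, at 1.45, 1.91 and 2.07 FPKM against 1.25, 1.02 and 1.01 FPKM in set 1 and at 1.16, 1.06 and 0.83 FPKM against 1.71, 1.62 and 1.30 FPKM in set 2. The groups were apart in both sets, with A10-FMT the higher in set 1 and the lower in set 2. The log2 change in set 1 was 0.42 (SE 0.12, adjusted p = 0.0248 by limma).

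**Figure D2:**
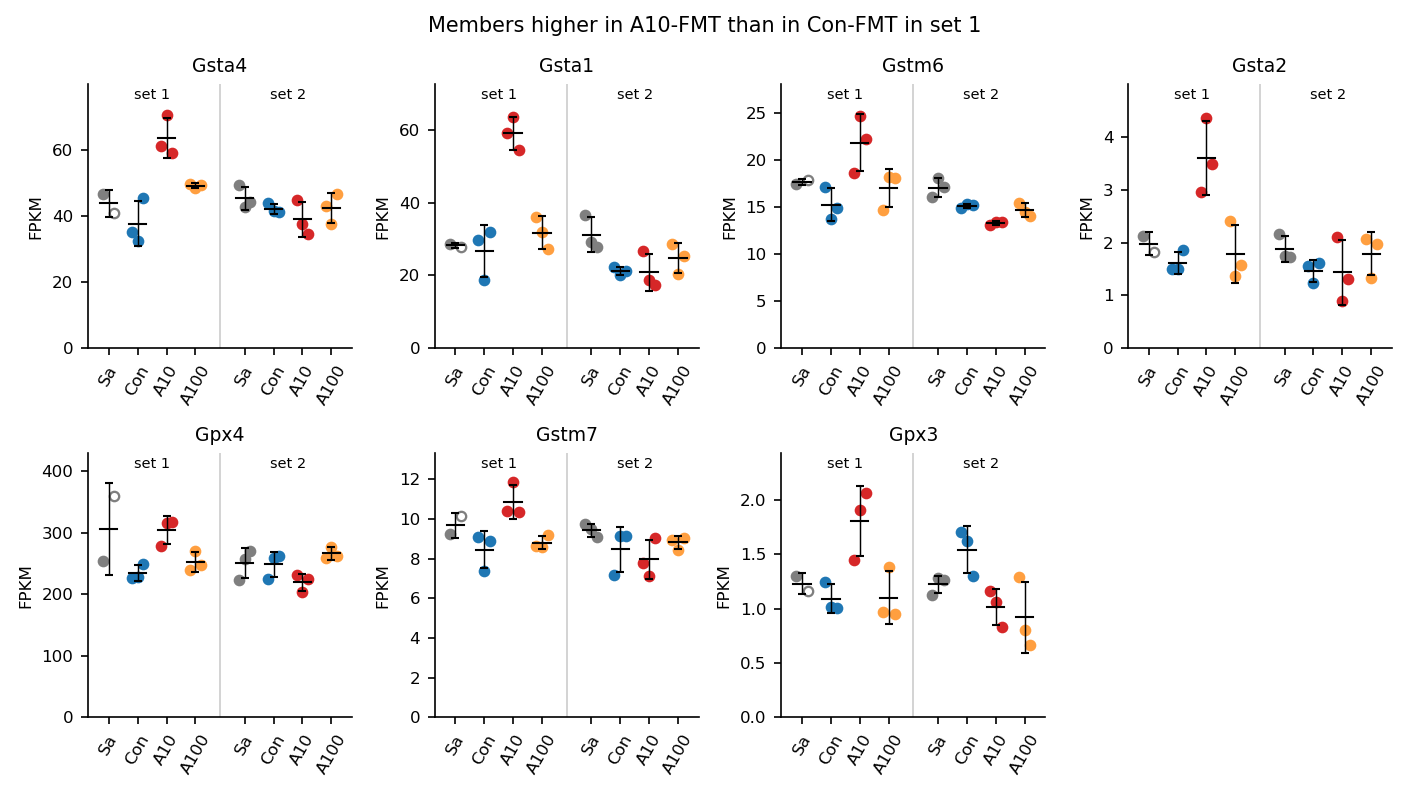
Points give the FPKM (vertical axes, from 0) of each library for the 7 members called in A10-FMT vs. Con-FMT of set 1, by treatment and set, with the mean (bar) and SD (whisker). For Gsta1, Gsta2 and Gsta4 the 3 A10-FMT libraries of set 1 lie above every other library, and the open circle is Sa replicate 3 of set 1.

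By class, the alpha GSTs had the largest median log2 change of A10-FMT vs. Con-FMT in set 1, 0.78 over the 4 genes tested, with 4 of 4 higher. The 4 tested peroxidases had a median of 0.30, the 7 mu GSTs 0.27 with 6 higher, the 3 theta GSTs 0.20, the 3 microsomal GSTs 0.18, the 4 genes of synthesis and recycling 0.11 and the 3 pi GSTs 0.01. In set 2 the same medians were -0.04, -0.10, -0.15, 0.16, 0.04, -0.04 and -0.20. The groups did not overlap, with A10-FMT higher, for 11 of the 31 members in set 1 (12.2% of all tested genes) and for 6 in set 2 (17.0%). They did not overlap with A10-FMT lower for 1 member in set 1 (29.8% of all genes), Gstp3, and for 4 in set 2 (8.30%), which were Gpx3, Gstk1, Gstm3 and Gstm6.

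In set 2, 0 of the 31 members were called in A10-FMT vs. Con-FMT by limma, with 2 at an unadjusted p under 0.05, where 0.379% of all genes were called. The difference between the sets was itself tested, as a contrast chosen after the data had been seen. Here 8 members were called, all with the greater change in set 1, where 20.8% of all genes were called. They were the 7 above and Gstm4, a mu GST at 12.6, 14.7 and 15.3 FPKM against 12.1, 11.2 and 11.6 FPKM in set 1 and at 9.0, 10.04 and 9.97 FPKM against 9.57, 11.8 and 11.3 FPKM in set 2. The log2 difference was 1.18 for Gsta1 (SE 0.25, adjusted p = 0.00402 by limma) and 0.87 for Gsta4 (SE 0.16, adjusted p = 0.00145 by limma).

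Other treatment effects against Con-FMT were not detected. In A100-FMT vs. Con-FMT, 0 members were called in set 1 by limma (7 at an unadjusted p under 0.05, 0.406% of all genes called) and 0 in set 2 (2 at an unadjusted p under 0.05, 0% of all genes called). In set 1, 24 of the 31 members were higher in A100-FMT than in Con-FMT, with a median log2 change of 0.09. In set 2 these values were 22 and 0.06.

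Leaving out 1 library moved the count of 7, given here without the share of all genes called in each fit. It was 4 without Con-FMT replicate 2 of set 1 and 4 without A10-FMT replicate 2 of set 1, the members called in each case being Gsta1, Gsta2, Gsta4 and Gstm6. Without Sa replicate 3 of set 1, which enters through the shared estimate of spread, it was 10, adding Gclc, Gstt1 and Gstm4.

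Markers of epithelial cell types moved with these results. In A10-FMT vs. Con-FMT of set 1, 7 of 10 enterocyte markers were higher and 0 lower (median log2 change 0.52), 3 of 7 tested distal markers and 2 of 7 tested proximal markers were higher, and 2 of 7 goblet cell markers were higher. In the same comparison 5 of 7 crypt proliferation markers and 2 of 4 stem cell markers were lower (medians -0.29 and -0.38), and 0 of 7 Paneth cell markers were called. The enterocyte markers summed to 11393 to 14047 FPKM in A10-FMT and 7155 to 8273 FPKM in Con-FMT of set 1, and to 5030 to 6618 FPKM and 7661 to 9574 FPKM in set 2. In set 2, 2 of the 10 were lower in A10-FMT, with a median of -0.36. The part of cell type make-up in the change of the glutathione genes was not tested.

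**Figure D3:**
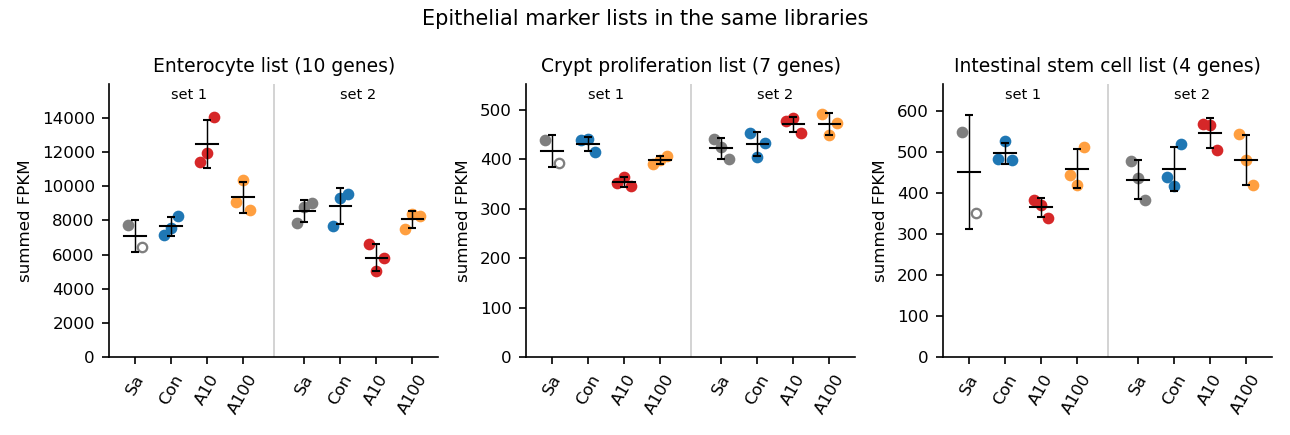
Points give the summed FPKM of 3 marker lists (vertical axes, from 0) in each library, by treatment and set, with the mean (bar) and SD (whisker) of each group. Enterocyte markers were highest in A10-FMT of set 1 (11393 to 14047 FPKM) and lowest in A10-FMT of set 2 (5030 to 6618 FPKM), and crypt proliferation markers were lowest in A10-FMT of set 1 (345 to 364 FPKM).

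The remaining glutathione pathway was described in the same comparison from lists of related genes, to be read against the 16.7% of all tested genes called there (590 higher and 1301 lower of 11337). The lists held only 9 to 19 tested genes each, so their shares are coarse. Of the 14 tested genes of glutathione breakdown and export, 4 were higher in A10-FMT than in Con-FMT of set 1 and 0 lower (median log2 change 0.14). They were Ggt1, the gamma-glutamyl transferase that opens extracellular glutathione (0.75, SE 0.11, adjusted p = 0.000811 by limma), Anpep, an aminopeptidase of the brush border that is also on the enterocyte list (0.46, SE 0.08, adjusted p = 0.00194), Lap3 (0.35) and the dipeptidase Dpep1 (0.61). Ggt1 was at 216 to 267 FPKM in A10-FMT and 134 to 143 FPKM in Con-FMT of set 1. In set 2 it was at 94.2 to 121 FPKM and 137 to 173 FPKM, and there both Ggt1 (-0.54, adjusted p = 0.0399 by limma) and Anpep (-0.55, adjusted p = 0.0315 by limma) were lower in A10-FMT.

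The cysteine supply list was split in the sign of its RNA changes, which is no measure of the supply. Of its 10 tested genes 3 were higher, namely Slc3a1 (0.52), Slc3a2 (0.34) and Slc7a9 (0.34), which form the cystine transporter of the brush border (Slc3a1 with Slc7a9) and a heavy chain of other amino acid exchangers. The cysteine dioxygenase Cdo1 was lower (-0.31), and the median was -0.12. In NADPH supply, which serves glutathione reductase, 1 of 9 was higher (Idh1, 0.35) and 2 were lower (Nnt, -0.30, and Idh2, -0.29). The thioredoxin, peroxiredoxin and glutaredoxin genes, which handle thiols and peroxides beside glutathione, had 3 of 18 higher and 0 lower, namely Prdx5 (0.49), Glrx (0.40) and Srxn1 (0.43). Their median was -0.02, and their share called was that of all genes.

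A list of regulators and responsive genes of Nrf2, the transcription factor that induces many GSTs and both subunits of glutamate-cysteine ligase, had 5 of 19 tested genes higher and 0 lower, with a median of 0.07. The first 4 by adjusted p were Cbr1 (0.50), Osgin1 (0.57), Maff (0.50), a binding partner in the Nrf2 system, and Srxn1 (0.43), which is also on the thioredoxin list. Of 15 other conjugating enzymes, 3 were higher and 0 lower, namely the sulfotransferase Sult2b1 (0.68), the epoxide hydrolase Ephx2 (0.41) and the glucuronosyltransferase Ugt2b5 (0.55). Of 11 other glutathione-using enzymes, 1 was higher (Hagh, 0.28) and 2 were lower (Gstcd, -0.43, and Clic6, -0.38). In set 2 the medians of these last 3 lists were -0.02, -0.12 and -0.01, and limma called none of their genes.

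Nrf2 binds the antioxidant response element, whose core was searched on both strands as TGACNNNGC in RefSeq promoters of 300 bases (250 before to 50 after the start site, GRCm38.p6). Promoters were found for 33 of the 37 members, and 5 of these genes (15.2%) held the core, against 14.0% of all 27025 genes. The share in the members was therefore near that of all genes. The 5 matches are shown with 10 bases on each side, the core in capitals, as the members that held it.
Gclm: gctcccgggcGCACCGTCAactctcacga
Gsta3: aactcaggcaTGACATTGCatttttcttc
Gstm5: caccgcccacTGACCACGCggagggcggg
Gstm7: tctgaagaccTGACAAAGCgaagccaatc
Mgst1: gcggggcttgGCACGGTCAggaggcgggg
They lie at chr3:122245413-122245441, chr1:21240454-21240482, chr3:107895802-107895830, chr3:107931725-107931753 (minus strand) and chr6:138140461-138140489, and the cores of Gclm and Mgst1 are on the strand opposite to the gene. The 33 genes had 45 windows, as a gene can have several start sites. Relative to the start site of the window that held them, the cores begin at -134, -121, -42, -129 and -56, in the order shown. The windows of Gsta1 and Gsta2 held no match, and those of Gsta4 and Gclc were not used here. A match is only a match of letters in this window.

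Against saline, the calls in set 1 depended on single libraries. In set 1, 11 of the 31 members were called in Con-FMT vs. Sa (26.9% of all genes called), 9 in A10-FMT vs. Sa (32.0%) and 8 in A100-FMT vs. Sa (35.2%). The comparisons share their 2 Sa libraries. Without Sa replicate 3 these counts were 0, 1 and 0 (where 0.00882%, 8.13% and 0.238% of all genes were called), and with the column named in that library's description they were 0, 8 and 0. Other libraries mattered as well. Con-FMT vs. Sa had 0 called members without Con-FMT replicate 1, 6 without replicate 2 and 0 without replicate 3. A100-FMT vs. Sa had 2 without A100-FMT replicate 3. The shares of all genes called with the description's column and without these FMT libraries are not given here. The member called without replicate 3 was Gsta1 in A10-FMT vs. Sa, with a log2 change of 1.03 (SE 0.20, adjusted p = 0.00193 by limma) with that library and 1.01 (adjusted p = 0.0294 by limma) without it.

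All 11 members called in Con-FMT vs. Sa of set 1 were lower in Con-FMT, the 3 tested theta GSTs, the 3 microsomal GSTs, Gstm1, Gstm4, Gpx1, Gpx4 and Gstz1. In A10-FMT vs. Sa, 5 were higher (Gsta1, Gsta2, Gsta4, Gstm6 and Gclc) and 4 lower (Gpx1, Gstm5, Gstt3 and Gstz1). In A100-FMT vs. Sa, 1 was higher (Gclm) and 7 lower (Gpx1, Gstz1, Mgst1, Mgst3, Gstm4, Gstm5 and Gsto1). With quantile normalization the last split was 2 higher and 3 lower. Without Sa replicate 3 none of these log2 changes turned in sign, but many were smaller. In Con-FMT vs. Sa the 11 ran from -0.70 to -0.21 with that library and from -0.53 to -0.12 without it. In A10-FMT vs. Sa, Gclc went from 0.43 to 0.12 and Gpx1 from -0.47 to -0.23, while Gsta4 went from 0.53 to 0.43 and Gstm6 from 0.29 to 0.30. In A100-FMT vs. Sa, Gclm went from 0.25 to 0.08, Mgst3 from -0.33 to -0.07 and Gstz1 from -0.29 to -0.17.

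Gpx1 was at 488 FPKM in Sa replicate 1 and 675 FPKM in replicate 3, against 414, 404 and 444 FPKM in Con-FMT, 425, 414 and 405 FPKM in A10-FMT and 455, 434 and 453 FPKM in A100-FMT of set 1. Set 2 had 428, 478 and 433 FPKM in Sa, 443, 439 and 471 FPKM in Con-FMT, 520.3, 499 and 484 FPKM in A10-FMT and 491, 527 and 482 FPKM in A100-FMT. Both Sa libraries of set 1 were above all FMT libraries of that set, and Sa of set 2 was below A10-FMT and A100-FMT. Mgst3 was at 454 and 654 FPKM in Sa, 396, 410 and 406 FPKM in Con-FMT, 430, 476 and 471 FPKM in A10-FMT and 436, 447 and 417 FPKM in A100-FMT of set 1. Both Sa libraries were above Con-FMT and A100-FMT there, and only replicate 3 was above A10-FMT. In set 2, Mgst3 was at 402, 462 and 443 FPKM in Sa, 385, 389 and 455 FPKM in Con-FMT, 453, 384 and 430 FPKM in A10-FMT and 419, 448 and 410 FPKM in A100-FMT.

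Gstz1, an enzyme of tyrosine breakdown, was at 32.8 and 39.0 FPKM in Sa, 31.6, 28.2 and 29.4 FPKM in Con-FMT, 27.5, 28.6 and 26.5 FPKM in A10-FMT and 28.9, 27.0 and 31.7 FPKM in A100-FMT of set 1. It was at 30.4, 32.3 and 31.2 FPKM in Sa, 29.7, 29.5 and 28.8 FPKM in Con-FMT, 30.1, 29.8 and 31.7 FPKM in A10-FMT and 32.6, 32.5 and 31.1 FPKM in A100-FMT of set 2. Sa was the highest group of set 1 also without replicate 3. Gsto1, an omega GST with thioltransferase activity, was at 387 and 435 FPKM in Sa, 361, 372 and 372 FPKM in Con-FMT, 357, 419 and 371 FPKM in A10-FMT and 349, 367 and 367 FPKM in A100-FMT of set 1. Set 2 had 365, 365 and 365 FPKM in Sa, 368, 382 and 366 FPKM in Con-FMT, 369, 349 and 389 FPKM in A10-FMT and 397, 402 and 377 FPKM in A100-FMT. Its Sa values were above A100-FMT in set 1 and below it in set 2.

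Gclc and Gclm, the subunits of the ligase that starts glutathione synthesis, were low in replicate 3. Gclc was at 27.5 and 17.7 FPKM in Sa, 27.3, 25.0 and 24.7 FPKM in Con-FMT, 32.8, 26.9 and 30.8 FPKM in A10-FMT and 26.2, 24.6 and 25.3 FPKM in A100-FMT of set 1, and 23.1 to 27.4 FPKM in all libraries of set 2. Gclm was at 39.8 and 31.5 FPKM in Sa, 39.6, 38.3 and 38.7 FPKM in Con-FMT, 41.4, 39.2 and 40.5 FPKM in A10-FMT and 43.1, 39.7 and 44.0 FPKM in A100-FMT of set 1, and 36.5 to 42.3 FPKM in set 2. Replicate 1 of Sa lay within the FMT values for both genes. Gstm5 was the opposite case, at 33.2 and 43.1 FPKM in Sa and 26.6 to 33.3 FPKM in the FMT libraries of set 1, and at 29.1 to 33.8 FPKM in set 2.

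**Figure D4:**
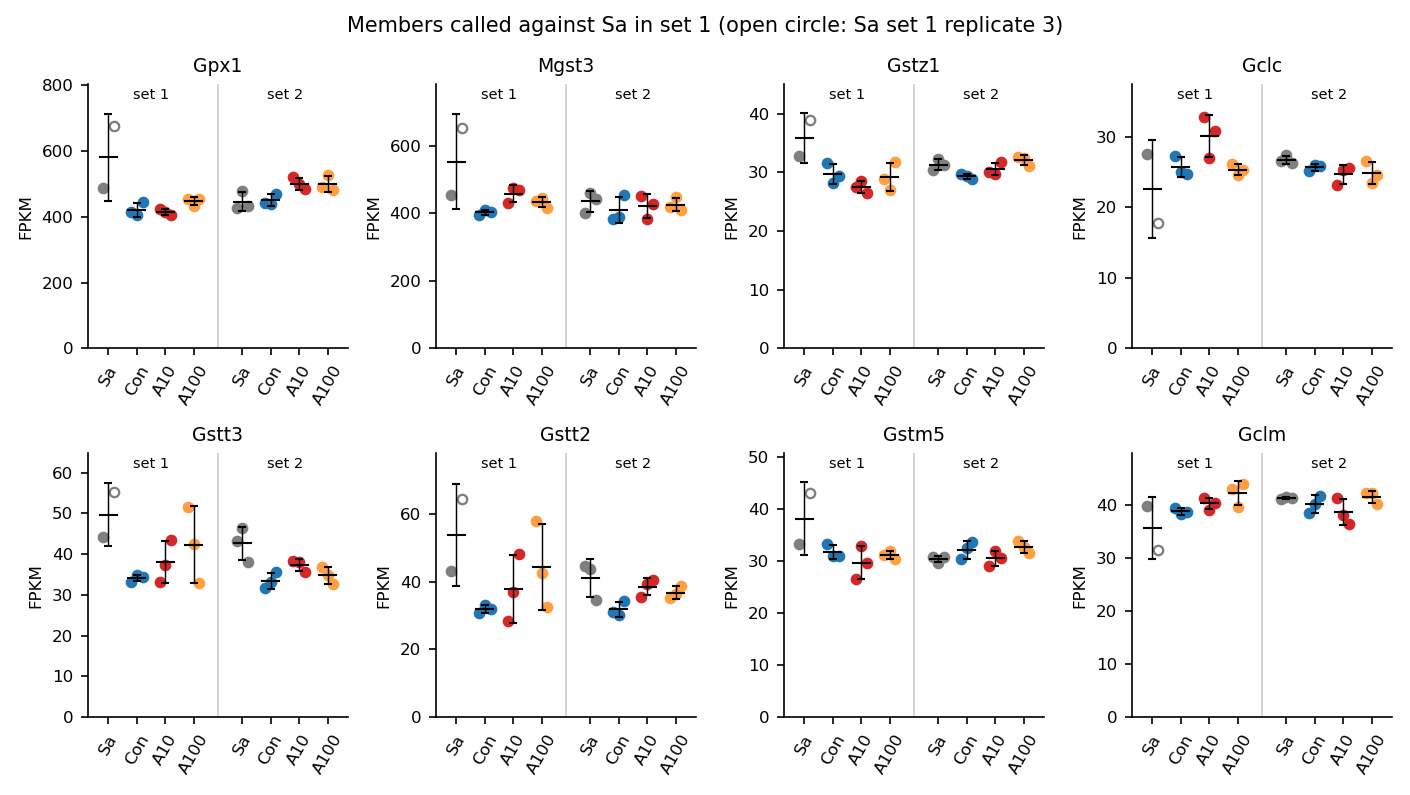
Points give the FPKM (vertical axes, from 0) of each library for 8 members called against Sa in set 1, by treatment and set, with the mean (bar) and SD (whisker). The open circle, Sa replicate 3 of set 1, is the lowest library of set 1 for Gclc and Gclm and the highest of set 1 for the others.

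In set 2, where Sa had 3 libraries, no member was called against Sa. The count was 0 in Con-FMT (3 at an unadjusted p under 0.05, 0.0353% of all genes called by limma), 0 in A10-FMT (7 at an unadjusted p under 0.05, 0.423% called) and 0 in A100-FMT (3 at an unadjusted p under 0.05, 0.0353% called). Groups not overlapping, with the FMT group lower, were found for 8 members in Con-FMT (10.9% of all genes), 9 in A10-FMT (11.4%) and 4 in A100-FMT (10.1%). With the FMT group higher they were found for 3 members (6.30%), 2 members (19.2%) and 4 members (18.4%). The median log2 changes over the members were -0.06, -0.14 and -0.01.

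Averaged over both sets, 1 member was called in Con-FMT vs. Sa (0.750% of all genes called), 0 in A10-FMT vs. Sa (6 at an unadjusted p under 0.05, 0.132% called by limma) and 0 in A100-FMT vs. Sa (7 at an unadjusted p under 0.05, 0.891% called). The 1 was Gstt3, a theta GST, lower in Con-FMT with a log2 change of -0.43 (SE 0.09, adjusted p = 0.0414 by limma). Gstt3 was at 44.2 and 55.2 FPKM in Sa and 33.3, 34.8 and 34.3 FPKM in Con-FMT of set 1, and at 43.3, 46.4 and 38.1 FPKM in Sa and 31.6, 33.1 and 35.5 FPKM in Con-FMT of set 2. Every Con-FMT library was below every Sa library in both sets. A10-FMT was at 33.3, 37.3 and 43.5 FPKM and 38.3, 38.1 and 35.7 FPKM, and A100-FMT at 51.6, 42.5 and 32.9 FPKM and 36.8, 34.8 and 32.7 FPKM, in set 1 and set 2. The call was fragile. No member was called without Sa replicate 3 of set 1, nor with the column of its description, in which that library has 34.2 FPKM, nor when most of the other libraries were left out in turn. Leaving out Sa replicate 1 of set 1 leaves only replicate 3 in that group, and calls from that fit are not read as a result about the members. Of the Gstt3 windows, 23.9% also occur in the transcript Gm20441.

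The theta GSTs act on small halogenated and epoxide substrates. All 3 tested were lower in Con-FMT than in Sa in both sets, with a median log2 change of -0.57 in set 1 and -0.34 in set 2. In A10-FMT vs. Sa the medians were -0.38 and -0.18, and in A100-FMT vs. Sa -0.24 and -0.28, for comparisons that share their Sa libraries within a set. Without Sa replicate 3 the set 1 median was -0.42 for Con-FMT vs. Sa, -0.22 for A10-FMT vs. Sa and -0.08 for A100-FMT vs. Sa. In the column of its description that library has 14.9 FPKM for Gstt1, 35.1 FPKM for Gstt2 and 34.2 FPKM for Gstt3. Con-FMT of set 1 was at 15.9 to 16.3 FPKM, 30.85 to 33.1 FPKM and 33.3 to 34.8 FPKM for these genes. In set 2 none of these genes passed the test in any of the 3 comparisons.

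Whether the effects against Sa differed between the sets was tested directly. In Con-FMT vs. Sa, 0 members differed by limma (7 at an unadjusted p under 0.05, 0.00882% of all genes called). In A10-FMT vs. Sa, 9 members differed (28.4% of all genes called), and 6 of them had the higher change in set 1, which were Gsta1, Gsta2, Gsta4, Gstm6, Gclc and Gclm (with quantile normalization 7 higher and 2 lower). In A100-FMT vs. Sa, 4 members differed (26.8% called), all with the lower change in set 1, which were Gpx1, Gstz1, Gsto1 and Gstm5. Over the 31 members the median log2 difference of set 1 minus set 2 was 0.14 for A10-FMT and -0.19 for A100-FMT vs. Sa. Without Sa replicate 3 it was 0.15 and -0.04, and the members called fell to 6 and 0. The 6 were Gsta1, Gsta4, Gstm6, Gpx1, Gpx4 and Mgst1, so that Gsta2, Gclc and Gclm were no longer called. The shares of all genes called in that fit are not given here.

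**Figure D5:**
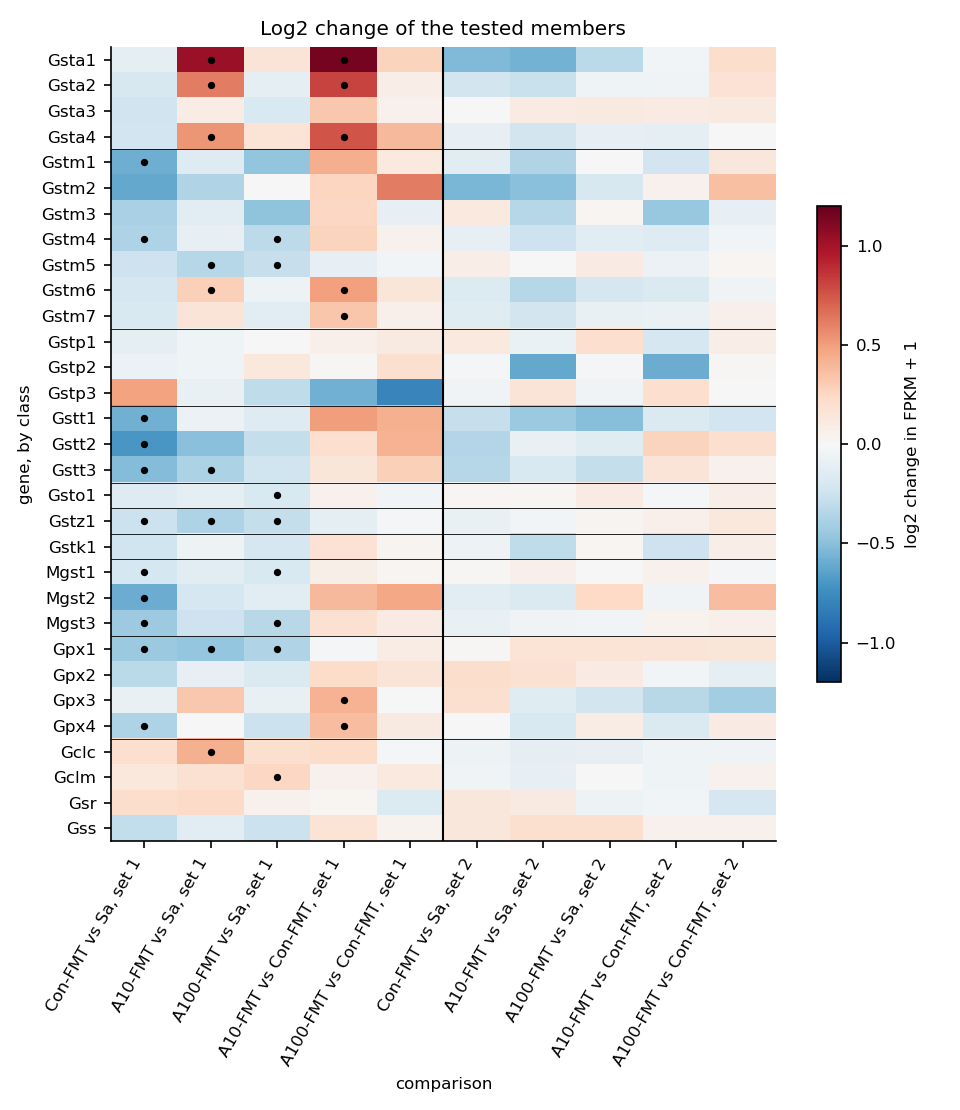
Colours give the log2 change in FPKM + 1 of the 31 tested members (rows, by class) in 10 comparisons (columns, set 1 left and set 2 right of the line), and dots mark an adjusted p under 0.05. The alpha GSTs carry the deepest red in A10-FMT vs. Con-FMT of set 1 (up to 1.15), and the set 2 columns hold no dot.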

How the data were processed

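Small intestine RNA of busulfan-treated mice, in 23 libraries, was analysed in 8 groups. RNA was extracted by the authors with TRIzol and read on a HiSeq instrument, and read numbers per gene were scaled by length and depth. The deposited values are FPKM per the file headers, with build mm10 per the submitters' processing notes. The aligner, the counter and the handling of shared reads are not given in the sources used here. FPKM hides depth. Steps between low values gave a relative depth of 0.80 to 1.07, from 11 genes and as few as 3 in a library, which is a rough guide only, and no interval was derived from it.

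A symbol was found for 17725 of the 17842 NCBI Gene numbers in the table, and 1373 further entries carry BGI identifiers. Values were analysed as log2(FPKM + 1), so changes of low genes are understated. Genes averaging 1 FPKM or more (11337) were fitted with limma 3.58.1 in R 4.3.3 (1 mean per group, all 8 groups, moderated variances with an intensity trend). Benjamini-Hochberg adjustment ran over all of these genes, and the threshold was 0.05. The p-values measure the spread between libraries of a group, which is that between mice if each library is 1 mouse. The method was tested on simulated data. Tables and figures were made with Python 3.11.15, pandas 2.3.3, numpy 2.4.6 and matplotlib 3.10.9.

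Members and gene lists were chosen with earlier results of these data known. Values are given for the 8 members of highest mean, for members called over both sets, against Con-FMT or in the difference between the sets, and for members called against Sa in set 1 with and without Sa replicate 3. Up to 4 called genes of a list are named by adjusted p. Names of members whose groups did not overlap were chosen after their values were seen. As alternatives, the pseudocount was set to 0.1 and the filter to any value above 0. The others were quantile normalization, a replicate block within the set, the column of the description, array quality weights, a fit on the groups compared alone, and leaving out each library in turn. The difference between the sets in A10-FMT vs. Con-FMT was chosen after seeing the data. Shared transcript windows were counted in GENCODE M21 transcripts, and promoters are from RefSeq (GRCm38.p6).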

Additional observations from a re-analysis of the deposited data

Results flagged for a closer look

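Members whose effect differed between set 1 and set 2, by the interaction term of the limma fit (adjusted p under 0.05), are listed with the log2 difference of set 1 minus set 2. In A10-FMT vs. Con-FMT the difference was 1.18 for Gsta1, 0.85 for Gsta2, 0.87 for Gsta4, 0.75 for Gpx3, 0.55 for Gpx4, 0.42 for Gstm4, 0.67 for Gstm6 and 0.41 for Gstm7. In A10-FMT vs. Sa it was 1.60 for Gsta1, 0.88 for Gsta2, 0.74 for Gsta4, 0.62 for Gstm6, 0.54 for Gclc, 0.28 for Gclm, -0.63 for Gpx1, -0.35 for Gstm5 and -0.33 for Gstz1. In A100-FMT vs. Sa it was -0.52 for Gpx1, -0.38 for Gstm5, -0.29 for Gsto1 and -0.32 for Gstz1. In the order given, 25.8%, 29.0% and 12.9% of the 31 members were called, against 20.8%, 28.4% and 26.8% of all tested genes. The last 2 comparisons use the same Sa libraries, of which replicate 3 of set 1 stands apart. Without that library 0 members were called in A100-FMT vs. Sa. The call of Gclm in A10-FMT vs. Sa was lost in 24 of the 30 alternatives. What else differs between the sets is not given in the labels, and causes were not tested. Groups of 2 or 3 libraries are too small for a test of single outlying samples.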

How the results depend on the processing

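The direction of each called member was the same under the 30 alternatives run, and the calls of Gsta1, Gsta2, Gsta4 and Gstm6 in A10-FMT vs. Con-FMT of set 1 were made in all of them. The number of called members moved in other comparisons, and the cause was not tested. The counts in this section stand without the share of all genes called under the same setting. They describe how stable the calls were and are not results about the members. In set 1, the 11, 9 and 8 members called in Con-FMT, A10-FMT and A100-FMT vs. Sa became 0, 0 and 0 with array quality weights and with the groups compared alone. With the column of the description, Con-FMT and A100-FMT gave 0 and 0. With all genes above 0 they gave 5 and 5, and with quantile normalization 7 and 5 (A100-FMT 2 higher and 3 lower, in place of 1 and 7). Leaving out 1 library gave 0 to 18, 1 to 14 and 0 to 11, and the 18 came without Sa replicate 1. Over both sets, the 1 member in Con-FMT vs. Sa became 0 with all genes above 0, the description's column, array quality weights and the groups alone, and leaving out 1 library gave 0 to 15, 0 to 11 in A10-FMT and 0 to 10 in A100-FMT. In set 2, array quality weights gave 4 and 1 members in A10-FMT and A100-FMT vs. Sa and 1 and 1 in A10-FMT and A100-FMT vs. Con-FMT, and the groups alone gave 1 in A10-FMT vs. Sa. In A100-FMT vs. Con-FMT of set 1 the weights gave 1, and leaving out 1 library 0 to 1. The 7 members in A10-FMT vs. Con-FMT of set 1 ranged from 4 to 10 over libraries left out. For the difference between the sets, leaving out 1 library gave 0 to 11 in Con-FMT, 6 to 13 in A10-FMT and 0 to 11 in A100-FMT vs. Sa, and 5 to 11 in A10-FMT vs. Con-FMT. Array quality weights gave 0 and 0 in A10-FMT and A100-FMT vs. Sa, the groups alone 4 and 0, and the description's column 2 in A100-FMT. With quantile normalization the A10-FMT vs. Sa difference was 7 higher and 2 lower, in place of 6 and 3.

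Replicate numbers are shared by the groups, but nothing in the labels ties them to a litter or day. Deviations of same-numbered libraries from their group means correlated at -0.35 to 0.32 over 33 pairs (median 0.00), so the numbers do not pair the samples. With the replicate block within the set, the counts were 13, 7 and 8 members in Con-FMT, A10-FMT and A100-FMT vs. Sa of set 1, 0 in Con-FMT vs. Sa over both sets, 7 in A10-FMT vs. Con-FMT of set 1, 9 and 4 in the differences between the sets of A10-FMT and A100-FMT vs. Sa, and 6 in that of A10-FMT vs. Con-FMT. Where 1 library was left out of Sa in set 1, the remaining 1 was assumed to vary like the other groups. As FPKM carries no depth, a small change of a low gene such as Gpx3 or Gsta2 cannot be bounded by counting error.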
